A study of Triticum aestivum and Triticum urartu with 56 samples.

Results

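The 200 genes of bread wheat (*Triticum aestivum*) whose RNA was most enriched in immature embryo over root were examined, out of 107891 genes counted. They were chosen by the measured ratio log2((embryo CPM + 1)/(root CPM + 1)), taken from the highest value down, where CPM is the number of reads on a gene per 1000000 reads on all genes of that library, and 6 other identifiers were set aside by the rule. None of these 6 would have ranked among the first 200. Embryos of cultivar Chinese Spring were isolated 14 days post anthesis and roots were grown in Hoagland solution for 9 days, both without treatment, and each tissue had 1 RNA-seq library. The levels of the members in embryo and root therefore chose them and are given as a description without a test.

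Libraries that the choice did not use were then read for the same genes. Spike RNA-seq came from spikelets at booting stage (Feekes 10) of 3 controls (CK) and 4 RNAi lines of the first transgenic generation, labelled RLG_7.3_enh_RNAi, which carried a silencing construct made from sequence downstream of the start site in an RLG_famc7.3 element, a long terminal repeat retrotransposon. The labels give the genotype of CK as WT, and the methods of the study also call the 3 controls of this RNA-seq WT. Its main text, however, calls CK negative control transgenic lines. The labels give the cultivar of these 7 libraries as Fielder, whereas the methods name JW1 as the transformed cultivar. A second tissue label of all Chinese Spring libraries used here reads seedlings, and the tissue was taken from the more specific label and title. CAGE, which sequences the 5′ ends of capped RNA, was available for Chinese Spring embryo (3 libraries), root (2), booting spikelets (2) and the above-ground parts of seedlings grown for 9 days (4). Peak lists of the histone marks H3K4me3 and H3K9ac came from wild-type JW1 spikelets, 1 list each. The 4 RNAi libraries came from separate lines. Whether the CK libraries and the CAGE libraries of a tissue came from separate plants is not given in the sources used here, so p-values measure the spread between these libraries, which may be technical for CAGE.

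Bread wheat is a hexaploid that carries the A, B and D subgenomes, so that most genes exist as similar copies on the A, B and D chromosomes of a group. In the cereal grain the embryo grows into the seedling, and during its maturation it fills with storage proteins, oil bodies and proteins that protect cells during drying, many of which are made in seeds and in few other organs. Identifiers of the annotation carry the chromosome and a number that ascends along it, which is what the account of neighbours below rests on. No table used here pairs these identifiers with gene names, so members are given by identifier without a role, and no defining markers of embryo, root or spike could be checked.

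The members held a large part of the embryo library and almost none of the root library. In embryo, 6165253 reads, 18.2% of the 33911272 reads on genes, fell on the 200 members. In root, 826 reads did, 0.00399% of 20705861. The embryo level ranged from 158 to 10463 CPM with a median of 440 CPM, against a median of 0.442 CPM over all genes. CPM is not divided by gene length, so the order of levels among members is not an order of transcripts per gene.

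Root reads were absent or few for most members. No root read was counted for 108 members, 1 to 3 reads for 52, and 4 or more for 40. A count of 0 in root allows a level of up to 0.145 CPM, and 17 members had over 10 root reads. The most root reads were counted on TraesCS4A02G098600, with 92 reads (4.44 CPM) in root beside 1110 CPM in embryo. Of the members, 109 were among the 200 genes of highest embryo CPM.

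**Figure D1:**
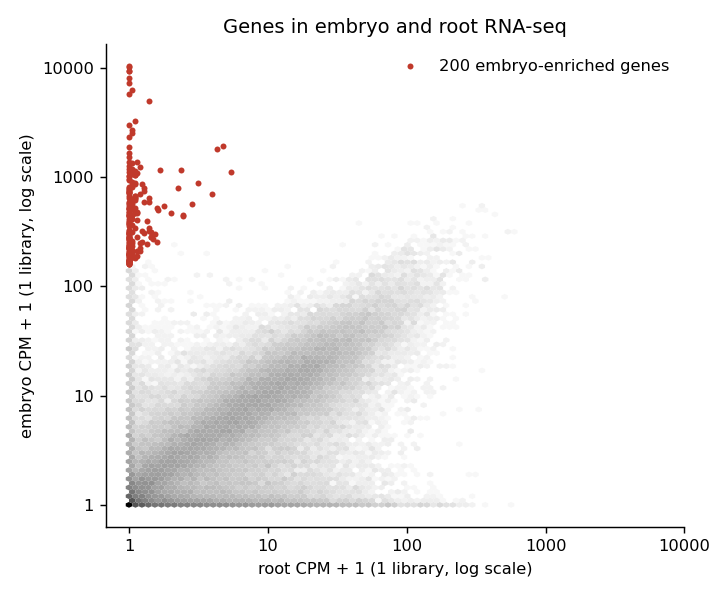
Embryo CPM + 1 against root CPM + 1 for every gene, both on log scales and with 1 library each; grey bins hold genes that are not members and red points the 200 members. The members lie along the left edge, with at most 4.44 CPM in root and from 158 to 10463 CPM in embryo.

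The 3 members of highest embryo level were TraesCS4D02G016000, TraesCS4B02G017500 and TraesCS5A02G432100. TraesCS4D02G016000 had 354811 reads in embryo (10463 CPM, exact Poisson 95% interval 10428.5 to 10497.4, which covers counting error only) and 0 in root. TraesCS4B02G017500 had 10239 CPM and TraesCS5A02G432100 had 9489 CPM in embryo, again with no root read. With 3 reads taken as the limit of a count of 0, these levels were at least 72215-fold, 70671-fold and 65496-fold higher in embryo than in root. Together the 3 genes took 3.02% of all embryo reads, and the 9 highest members took 7.22%.

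Those 9 members lay on the chromosomes of groups 4 and 5. They were adjacent pairs on 4A, 4B and 4D, and TraesCS5A02G432100, TraesCS5B02G434100 and TraesCS5D02G440000, which stood at 9489, 9435 and 8141 CPM. A gap followed, since the member next in level, TraesCS2D02G414800, had 3304 CPM, with 37 members above 1000 CPM in all. None of the 9 reached 0.1 FPKM in any of the 7 spike libraries.

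At the lower end of the list, TraesCS5D02G521400 ranked 200th with a log2 ratio of 7.32, from 158 CPM in embryo and no root read. The gene ranked next, TraesCS1D02G369200, had a log2 ratio of 7.31 with 993 CPM in embryo and 109 root reads (5.26 CPM). The boundary lay between genes of unlike levels in both tissues. With 0.1 CPM added instead, 167 of the 200 genes remained on the list, and with 10 CPM 179 did.

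Some members were neighbours on the chromosome. Runs of members whose identifier numbers followed each other by at most 300 numbered 15 and held 31 members, 15.5% of the list, in 14 pairs and 1 triplet. Every run was made of genes with no other counted gene between them. Under the mirrored rule, the 200 most root-enriched genes held 22 such genes in 11 pairs, and the next 200 ranks of the embryo list held 16 in 8 pairs. With steps of at most 100, the numbers were 31, 14 and 12. These counts are descriptions of lists, which were not tested against each other.

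The longest run was TraesCS5D02G558700 to TraesCS5D02G558900, 3 genes with 180 to 397 CPM in embryo and 1 root read among them. The other runs were pairs, so the next 2 in identifier order were TraesCS1D02G012000 with TraesCS1D02G012100, at 341 and 236 CPM, and TraesCS3B02G577900 with TraesCS3B02G578000, at 197 CPM each. Neighbours were often close in level, with a median of 1.76-fold between the highest and the lowest gene of a run, under 2-fold in 8 runs and over 5-fold in 1.

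Pairs recurred on the A, B and D chromosomes of groups 4 and 5. TraesCS4D02G016000 and TraesCS4D02G016100 had 10463 and 7338 CPM. TraesCS4B02G017500 and TraesCS4B02G017600 had 10239 and 5824 CPM. TraesCS4A02G296000 and TraesCS4A02G296100 had 5040 and 6264 CPM. The 3 pairs took 1.78%, 1.61% and 1.13% of all embryo reads, while the genes on either side of them had at most 7.11 CPM in embryo.

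Group 5 held pairs of lower level. TraesCS5A02G329000 and TraesCS5A02G329100 had 819 and 1183 CPM, TraesCS5B02G329100 and TraesCS5B02G329200 had 1377 and 1536 CPM, and TraesCS5D02G334900 and TraesCS5D02G335000 had 1900 and 768 CPM. The gene after each pair was outside the list but also embryo-high, with 40.8 CPM for TraesCS5A02G329200, 27.3 CPM for TraesCS5B02G329300 and 59.6 CPM for TraesCS5D02G335100, and at most 0.0483 CPM in root. Whether these pairs are copies of one another across subgenomes was not tested.

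Genes directly beside members, in the order of the genes counted, were examined as well. Among the 366 genes that sat directly beside a member and were not members, 29 (7.92%) had a log2 ratio of embryo over root of at least 3, beside 1.41% of all genes. For the root-enriched list turned the same way, 48 of 379 flanking genes (12.7%) did, beside 3.95% of all genes. The median log2 ratio of the genes flanking members was 0.01. The difference between flanking genes and all genes was not tested.

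The A, B and D subgenomes held 65, 64 and 70 members, 32.5%, 32% and 35%, and 1 member was on an unplaced sequence. Over all genes the shares were 32.8%, 33.0% and 31.7%, and over the 47623 genes with at least 1 CPM in embryo they were 32.9%, 33.2% and 32.9%. The median embryo level was 440 CPM for members on A, 427 CPM on B and 443 CPM on D. Of the reads on members, 30.4% fell on A, 34% on B and 35.5% on D.

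By chromosome group, groups 5 and 4 held 44 and 40 members, 22% and 20% of the list beside 15.4% and 11.4% of all genes. Groups 6 and 7 held 14 members each, 7% beside 11.8% and 14.6% of all genes. The most members were on 5D (19), 1A (16) and 5B (16), while 1B held 7. In the root-enriched list, group 5 had the fewest genes, 18, and group 6 had 31. These counts were not tested.

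**Figure D2:**
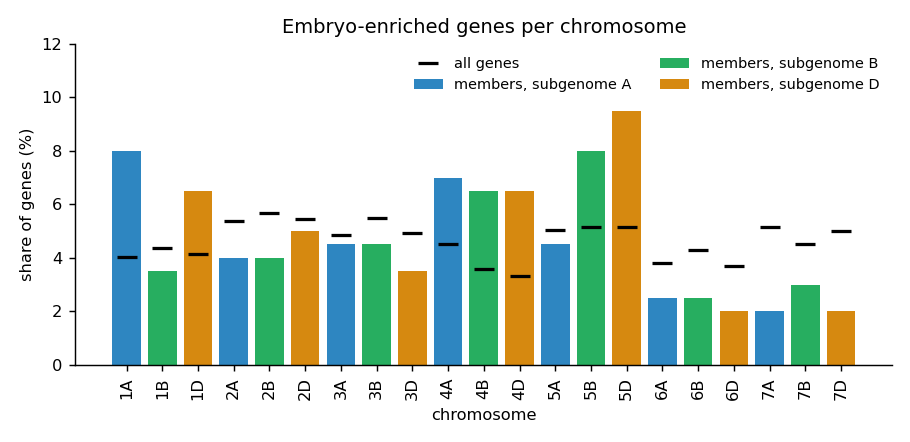
Share of the 200 members on each chromosome (bars, coloured by subgenome) beside the share of all genes there (black marks), in percent. Bars rise above the marks on 1A, 1D, all chromosomes of group 4, 5B and 5D and stay below them on groups 6 and 7.

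In spikes most members had no or hardly any reads. FPKM, the unit of the spike values, is read pairs per kilobase of gene and per 1000000 mapped pairs, so spike levels can be compared between genes. Of the 200 members, 77 (38.5%) were at 0 in all 7 spike libraries, 13 (6.5%) were above 0 in all 7, and the median of the CK means was 0 FPKM. Over all genes, 23.4% were at 0 in all 7, 49.4% were above 0 in all 7, and the median was 0.57 FPKM. A mean of at least 1 FPKM over the 3 CK libraries was reached by 16 members, 8.0% of the list. Over all genes 43.5% reached it, over genes with at least 1 CPM in embryo 77.2%, over the root-enriched list 48.0%, and over the next 200 ranks of the embryo ranking 22.5%. The shares describe the lists, and the members' low level in spike was not tested as a group.

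The spike counts are also given by position on the list, without a test. Among the 50 highest ranks 26 members were at 0 in all 7 spike libraries and none had a CK mean of at least 1 FPKM, whereas among the 50 lowest ranks 12 were at 0 and 6 reached it. By subgenome, 36.9% of the members on A, 40.6% on B and 38.6% on D were at 0 throughout. Of the members in runs, 14 of 31 (45.2%) were at 0 in every spike library, and 1 of 31, TraesCS1D02G012000, had a CK mean of at least 1 FPKM. Outside runs, 63 of 169 members (37.3%) were at 0 and 15 of 169 reached it.

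Most members above 0 in spike rested on few reads. Whole read counts could be recovered from the FPKM values (see the methods), and they gave 67 members 1 to 3 reads over the 7 libraries together, 18 members 4 to 10, 26 members 11 to 100 and 12 members over 100. These are the smallest counts that fit, so members above 0 in few libraries can have had more reads. The libraries differed in depth, from 3176975 mapped pairs behind the FPKM of CK replicate 1 to 11386497 in RNAi line 3. A single read pair in a gene of 1 kilobase was worth 0.315 FPKM in CK replicate 1 and 0.0878 FPKM in RNAi line 3.

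CK replicate 1, the shallowest library, had the most members at 1 FPKM or more, 29, beside 7 and 14 in CK replicates 2 and 3 and 10 to 16 in the RNAi lines. For 19 members only 1 library reached 1 FPKM, and in 14 of the 19 (73.7%) it was CK replicate 1, beside 29.7% of the 6577 genes of the whole table with this property. By the smallest counts that fit, 6 of these 14 members had 1 read there and 6 had over 3 reads. The largest such value was that of TraesCS6B02G383500, with 18.0 FPKM (64 reads) in CK replicate 1, 0.111 and 0.0919 FPKM in CK replicates 2 and 3, and 0, 0, 0 and 0.162 FPKM in RNAi lines 1 to 4. Without CK replicate 1, 11 members had a CK mean of at least 1 FPKM and 91 were at 0 in all remaining libraries. The part of that library's depth in these counts was not tested.

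CK replicate 2 stood apart in the other direction. Only 51.8% of its mapped pairs fell on genes, beside 78.4% to 87.5% in the other spike libraries, and its correlation with the other CK libraries over fitted genes averaged 0.72 (Pearson's r of log2 values across genes, which are not independent replicates), the lowest of the 7. The FPKM of all genes summed to 293545 in CK replicate 2 and to at least 534290 in every other spike library. Without CK replicate 2, 22 members had a CK mean of at least 1 FPKM.

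**Figure D3:**
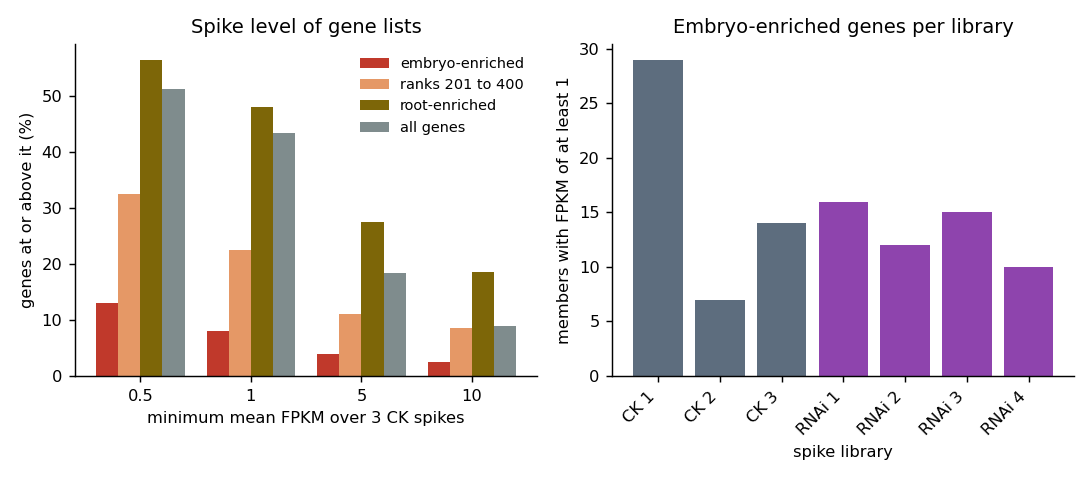
Left: percent of genes in 4 lists whose mean FPKM over the 3 CK spikes is at or above 0.5, 1, 5 and 10. Right: number of the 200 members with at least 1 FPKM in each spike library. The members have the lowest share at each minimum (8.0% at 1 FPKM), and CK replicate 1 has 29 members above 1 FPKM where the other 6 libraries have 7 to 16.

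A few members were strongly expressed in spike as well. TraesCS3A02G344700, TraesCS4A02G194400 and TraesCS4D02G118900 made up 80.0% of the summed CK means of the 200 members. TraesCS3A02G344700 had 146, 32.4 and 312 FPKM in CK replicates 1 to 3, and 438, 538, 318 and 107 FPKM in RNAi lines 1 to 4. TraesCS4A02G194400 had 174, 30.9 and 197 FPKM in CK and 325, 347, 217 and 65.9 FPKM in the RNAi lines. TraesCS4D02G118900 had 83.4, 23.1 and 174 FPKM in CK and 268, 298, 257 and 74.6 FPKM in the RNAi lines.

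The groups overlapped for each of the 3 genes. Their CK means were 163 ± 140, 134 ± 90.1 and 93.6 ± 76.1 FPKM (SD, n = 3), which ranked 195th, 253rd and 468th among all genes. Their RNAi means were 350 ± 186, 239 ± 128 and 225 ± 101 FPKM (SD, n = 4). In embryo they had 159, 527 and 461 CPM, and in root 0, 2 and 0 reads.

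All 3 genes ordered the 7 libraries identically, from CK replicate 2 at the bottom through RNAi line 4, CK replicate 1, CK replicate 3, RNAi line 3 and RNAi line 1 to RNAi line 2 at the top. This order was also found in 379 of the 55551 genes fitted (0.682%), and in no other fitted member. The observation was made after the values were seen. The length at which the FPKM values gave whole reads was 366 bases for TraesCS4A02G194400, TraesCS4D02G118900 and TraesCS4B02G120900, the last being the fifth member by CK mean, with 19.8, 2.71 and 37.6 FPKM in CK and 38.6, 16.6, 45.1 and 13.1 FPKM in the RNAi lines. Whether reads of such genes were split between near-identical copies could not be checked without their sequences. TraesCSU02G032900, the fourth, had 32.6, 10.3 and 36.1 FPKM in CK and 11.1, 12.4, 51.5 and 4.68 FPKM in the RNAi lines.

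**Figure D4:**
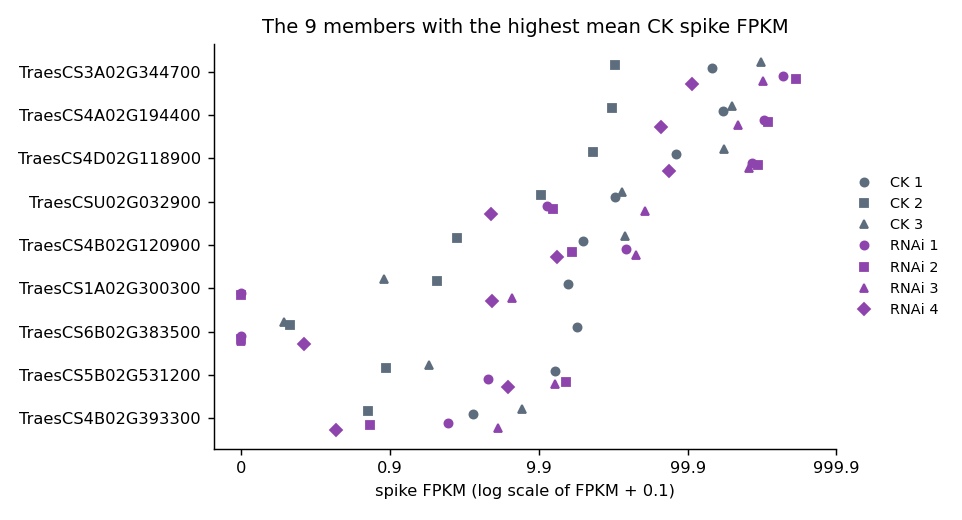
FPKM of the 9 members with the highest mean in CK spikes, on a log scale of FPKM + 0.1; each symbol is 1 library, grey for CK (3) and purple for RNAi lines (4). The 3 upper genes range from 23.1 to 538 FPKM with CK replicate 2 lowest, and TraesCS6B02G383500 is high in CK replicate 1 only.

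No member passed the test between RNAi lines and CK. Of the 200 members, 23 had a mean of at least 0.5 FPKM over the 7 libraries and entered the fit, which was limma's moderated test of log2(FPKM + 1) with the prior variance following the level, and p-values were adjusted by Benjamini-Hochberg over all 55551 genes fitted. None of the 23 had an adjusted p under 0.05, where 0.628% of all genes fitted did, and the smallest adjusted p of a member was 0.347. None had an unadjusted p under 0.05 either, where 15% of all genes did, so none met the second call rule, an absolute log2 change above 1 with unadjusted p under 0.05, which 9.54% of all genes met. Without CK replicate 3, 6 of 23 members met this second rule, as did 17.4% of all genes, and with another library left out 0 to 2 members did. On recovered reads, neither edgeR nor DESeq2 gave a member an adjusted p under 0.05. At an unadjusted p under 0.05 edgeR called 3 of the 23 members, beside 16.9% of all genes. DESeq2 also called 3, beside 19.5% of all 55551 genes fitted, but gave no p-value for TraesCS6B02G383500, which edgeR called.

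The fitted log2 changes of the 23 members, RNAi minus CK, ran from -1.46 to 1.49, above 0 in 10 and below 0 in 13. Their median was -0.12, beside 0.17 over all genes fitted, and its sign depended on the setting. It was 0.78 without CK replicate 1, 0.54 over the 16 members with a mean of at least 1 FPKM, and -0.48 with edgeR. The smallest p belonged to TraesCS1A02G415100, with 5.00, 0.246 and 0.408 FPKM in CK and 0, 0, 0.174 and 0 FPKM in the RNAi lines (log2 change -1.07, SE 0.50). This was the 1 member of the 23 whose groups did not overlap, while 15.6% of all genes fitted had groups that did not overlap. For TraesCS3A02G344700 the log2 change was 1.38 (SE 0.87, limma adjusted p = 0.443), and for TraesCS4D02G118900 it was 1.49 (SE 0.78, limma adjusted p = 0.379). Differences of the size seen were not resolved from the spread between libraries. The FPKM values entered this fit without scaling between libraries. With quantile normalization the log2 changes of these genes were smaller, 0.99 and 1.06.

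With limma's array weights 4 of the 23 members had an adjusted p under 0.05, but so did 24.5% of all genes fitted. The 4 were TraesCS1A02G415100, TraesCS6B02G332700 and TraesCS6B02G383500, lower in the RNAi lines, and TraesCS4D02G118900, higher. These weights gave CK replicate 1 a weight of 4.58 and CK replicate 2 a weight of 0.141, so that the CK level was set mostly by 1 library.

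CAGE libraries, which the choice of members did not use, were read for embryo against root and spike at listed start clusters. The study's list of start sites was readable here for chromosome 1A only, where it held clusters for 1386 of the genes counted, and 10 of the 16 members on 1A were among them. The study called start clusters in each tissue from these same libraries and then merged them, so a member with tags in embryo alone could be listed and pass a filter on low tags only through embryo. The counts of members below are therefore a description and no independent support for their level in embryo. Of the other 6, 3 had identifiers past the last listed gene and 3 lay within the listed stretch without a cluster. Tags of the 11 libraries, which held 2970800 to 24399682 tags, were summed over the clusters of each gene, and levels are given as RPM, tags per 1000000 tags of the library.

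The strongest start was that of TraesCS1A02G202900, in a cluster at chr1A:364046607-364046947 on the minus strand (IWGSC RefSeq v1.0). Embryo replicates 1 to 3 had 6692, 5986 and 3445 RPM there, and root replicates 1 and 2 had 3.03 and 3.05. The spike replicates had 2.3 and 1.6 RPM, and the seedlings 0, 0, 2.46 and 5.31. The embryo mean of 5374 ± 1708 (SD, n = 3) was 1769-fold that of root and 2757-fold that of spike. By edgeR's quasi-likelihood test the gene was higher in embryo than in root (log2 change 11.47, adjusted p = 0.0152) and than in spike (11.72, adjusted p = 0.00999). Unlike RPM, this fit took library size from the tags in listed clusters. With library size from all tags of the file, the log2 changes were 10.78 and 11.43.

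TraesCS1A02G165400, on the minus strand at chr1A:298107031-298107129, had tags in embryo only. Its 3 embryo libraries had 66.3, 38.0 and 63.3 RPM, and no tag was counted in the 8 libraries of the other tissues. Taking 3 tags over the libraries of a group as the limit of a count of 0, the embryo mean was at least 490-fold that of root. The gene could enter the fit through embryo alone, so its p-values are not given. In spike RNA-seq it nevertheless had a CK mean of 1.8 FPKM, from 3.67, 0.452 and 1.27 FPKM.

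In 9 of the 10 members all 3 embryo libraries lay above both root libraries, where 5.99% of the 1386 listed genes showed this. The exception was TraesCS1A02G328000, with 0, 0.673 and 8.96 RPM in embryo and 1.36 and 0 in root. TraesCS1A02G083800 had 264, 338 and 238 RPM in embryo beside 3.87 and 2.45 in root. TraesCS1A02G372700 had 155, 154 and 119 beside 3.24 and 2.51, and TraesCS1A02G224600 had 94.4, 127 and 60.8 beside 1.88 and 0.239.

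Against root, 9 members passed edgeR's filter on low counts. At an adjusted p under 0.05, 2 of the 9, TraesCS1A02G202900 and TraesCS1A02G165400, were higher in embryo, as were 0.419% of the 1193 genes tested. TraesCS1A02G165400 had no tag outside embryo and could pass the filter through embryo alone, so its call is a description and no support. TraesCS1A02G340100, with 3 root tags and none in spike or seedlings, could likewise pass through embryo alone. So could TraesCS1A02G175500, which had 91 tags in spike replicate 2 but at most 6 in any other library outside embryo. The 7 members not called had log2 changes of 5.59 to 11.38 with edgeR adjusted p of 0.0667 to 0.214. Without embryo replicate 1 the count was 1, and without embryo replicate 3 it was 0. DESeq2 called 8 of the 9, and 5.61% of the 1105 genes it tested. Its calls included TraesCS1A02G165400 and TraesCS1A02G175500, which are a description only.

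Against spike, 5 of 9 members were higher in embryo, where 0.838% of the genes tested were. These were TraesCS1A02G202900, TraesCS1A02G165400, TraesCS1A02G083800, TraesCS1A02G224600 and TraesCS1A02G372700, the last 2 with no tag in either spike library and embryo means at least 955-fold and 1447-fold higher. As against root, the call of TraesCS1A02G165400 is a description only. DESeq2 called 8 of the 9, and 4.98% of the genes it tested. Its calls included TraesCS1A02G165400, TraesCS1A02G175500 and TraesCS1A02G340100. These could pass the filter through embryo alone, so their calls are a description and no support. In 8 of the 10 members all embryo libraries lay above both spike libraries, beside 5.92% of listed genes. The count was 0 without spike replicate 1 or without spike replicate 2, each of which leaves 1 spike library, and 1 without embryo replicate 3.

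TraesCS1A02G300300 had the most spike tags of the 10 members. There were 42.0, 10.1 and 21.5 RPM in embryo, 23.0 and 19.4 in spike, 0 in both root libraries and 5.28, 0, 0 and 0.111 in seedlings. The embryo and spike levels overlapped and did not pass the test (log2 change 0.64, edgeR adjusted p = 0.999). In spike RNA-seq it had 15.7, 1.95 and 0.809 FPKM in CK and 0, 0, 6.45 and 4.74 FPKM in the RNAi lines. TraesCS1A02G175500 was split between the spike libraries, with 0 and 3.73 RPM, below its embryo values of 26.0, 21.5 and 26.6. The remaining members with clusters were TraesCS1A02G295800, with 18.1, 21.5 and 26.4 RPM in embryo and at most 0.164 in spike, and TraesCS1A02G340100, with 2.18, 7.41 and 4.40 in embryo and none in spike.

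**Figure D5:**
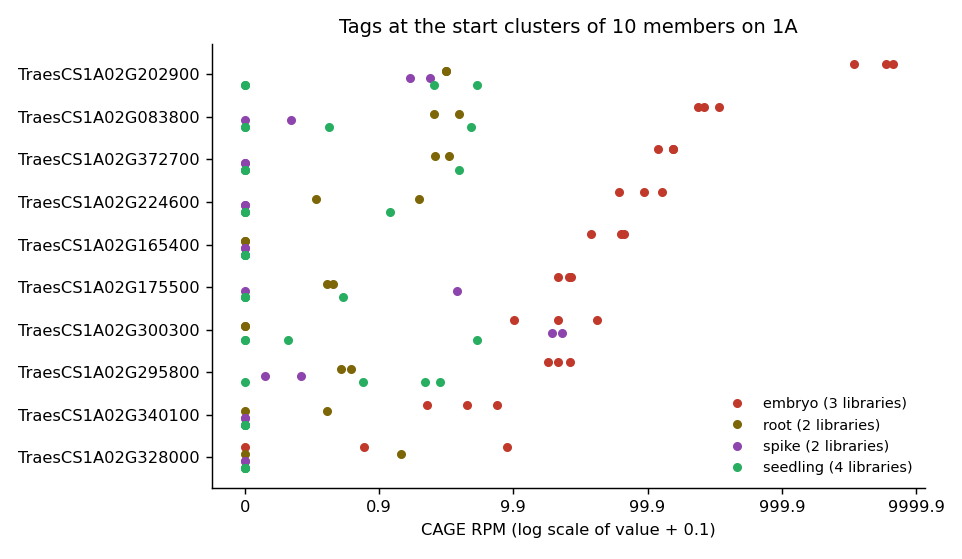
CAGE RPM at the listed start clusters of the 10 members on 1A, on a log scale of the value + 0.1; each point is 1 library, coloured by tissue. Embryo points (red) lie to the right of root, spike and seedling points for 8 members, with TraesCS1A02G300300 mixed with spike and TraesCS1A02G328000 mixed with root.

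H3K4me3 and H3K9ac, marks of active promoters, were found at these starts about as often as at other listed genes. With each cluster widened by 500 bp, an H3K4me3 peak of JW1 spikelets overlapped the starts of 9 of the 10 members, and an H3K9ac peak those of 9. Over all 1386 listed genes the shares were 87.5% and 81.1%. Of the 5 members without a CAGE tag in spike, TraesCS1A02G165400, TraesCS1A02G328000, TraesCS1A02G340100 and TraesCS1A02G372700 had both marks and TraesCS1A02G224600 lacked H3K4me3, while TraesCS1A02G175500 lacked H3K9ac. The peaks come from another cultivar than the CAGE tags and carry no heights, so strength could not be compared.

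The readable part of the study's lists touched the members at few other points. Among the 1294 genes in the readable part of its list of enhancer-like elements and putative target genes were 5 members, TraesCS1A02G224600, TraesCS1A02G175500, TraesCS1A02G416700, TraesCS1B02G237500 and TraesCS1B02G392700. Since that list was readable in part only, no share of all genes is given. No member was among the 339 genes it gives for RLG_famc7.3. These are few beside the 107891 genes counted, so the absence is not read as a trait of the members and was not tested.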

How the data were processed

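RNA-seq, CAGE and ChIP-seq files of the series were used. Per the methods of the study and the submitters' processing notes, RNA-seq reads were trimmed with Trim Galore 0.6.4, aligned with HISAT2 2.1.0 and counted on high-confidence IWGSC RefSeq genes with featureCounts. The authors deposited read counts for embryo and root, and FPKM for the 7 spike libraries. The authors' CAGE files hold, for each position and strand, the unnormalized count of tags whose 5′ end lies there. The peak files, deposited as positions only, were made with BWA 0.7.17-r1188 and MACS 1.4.2 per the submitters' notes. *T. urartu* CAGE was not used.

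Members and lists were chosen with earlier results of these data known. CPM was taken over each file's gene total, and the pseudocount was 1 CPM. The genes named are the 3 highest in embryo, the first, the 200th and the next rank, the 3 highest in CK spikes, every member with listed start clusters, and the ends of the 3 longest runs of neighbours; others were named after their values were seen.

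Spike values were fitted with limma 3.58.1 (R 4.3.3), in the main fit without scaling between libraries. Since 1 read pair is worth a fixed FPKM for a given length and depth, reads were recovered as the smallest whole numbers, to within 0.003 reads, that fit all libraries at 1 gene length. Mapped pairs from the study's quality list were the starting depth. This succeeded for 82610 of 82611 genes above 0, and a gene above 0 in few libraries can have had more reads. CAGE tags were fitted with edgeR 4.0.16 (filterByExpr, TMM, 4 tissues in 1 fit); DESeq2 1.42.0 was the alternative. Coordinates are those of the study's list of start sites, made 1-based. Fits and recovery were run on simulated data as a check of the code. The spread between simulated libraries was set and not taken from these data, so error rates here were not tested. Intervals and limits cover counting error only.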

Additional observations from a re-analysis of the deposited data

Results flagged for a closer look

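In 26 sets of 4 libraries, the RNAi lines or the seedling CAGE libraries of members named or detected in spike, the most outlying library was tested against the nearest of the others as a share of the whole range. In 11 sets the share was above Dixon's 95% critical value. That value holds for normally distributed values, whereas FPKM and RPM were used here without a log, so no chance rate is given. In 5 of the 11 a single library was above 0, which fixes the share at 1 whatever its level. The other 6 are given as a description.

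Among the RNAi lines, line 3 stood apart for 3 members. TraesCSU02G032900 had 51.5 FPKM there and at most 12.4 FPKM in the other lines (share 0.835), TraesCS2D02G414800 had 15.4 FPKM and at most 1.55 FPKM (0.974), and TraesCS2B02G436400 had 8.87 FPKM and at most 2.19 FPKM (0.846). RNAi line 1 stood apart for TraesCS1A02G295800, with 3.85 FPKM and at most 1.06 FPKM in the others (0.844). TraesCS6B02G383500 and TraesCS1A02G415100 were above 0 in 1 line only, at 0.162 and 0.174 FPKM (1 for both).

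In seedling CAGE, replicate 4 stood apart for 4 members. TraesCS1A02G083800 had 4.75 RPM there and at most 0.327 elsewhere (0.931). TraesCS1A02G372700, TraesCS1A02G224600 and TraesCS1A02G175500 had 3.87, 1.11 and 0.442 RPM there and none elsewhere (1 for each). For TraesCS1A02G300300 replicate 1 stood apart, with 5.28 RPM and at most 0.111 elsewhere (0.979).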

How the results depend on the processing

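Of 83 alternatives computed, 69 stayed within 1.5 times of the value reported. These include the RNAi settings that again called 0 members and all subgenome shares, which could hardly move, so the total is no measure of stability. The count of 16 members with a CK mean of at least 1 FPKM was 25 with a ranking pseudocount of 10 CPM, 4 of the first 100 genes, 61 of the first 400, 26 at a minimum of 0.5 FPKM and 8 at 5 FPKM; leaving out 1 CK library gave 11 to 22. Members at 0 in every spike library numbered 79 to 91 with 1 library left out. At an adjusted p under 0.05, no member passed the RNAi test under any alternative but array weights, which called 4 of 23 (and 13601 of all 55551 genes); with 1 library left out the count was 0 each time. Under the second rule, fold and unadjusted p, the count ranged from 0 to 9 over the settings, and from 0 to 6 with 1 library left out. The members called higher in embryo than in root by CAGE numbered 8 with DESeq2, and 0 to 2 with 1 library left out. Against spike they numbered 8 with DESeq2, and 0 to 6 with 1 library left out; the lone library of a group was then assumed to vary like the other groups. Library size from all tags of the file, and no widening or a 1000 bp widening for peaks, were chosen after seeing the data and changed no count by over 1.5 times.

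Equal replicate numbers did not pair the libraries: deviations of equally numbered CK and RNAi libraries correlated at -0.08, -0.05 and 0.09, and of equally numbered CAGE libraries at a median of 0.01. With the replicate block the RNAi test called 0 of 24 members, and the CAGE test 6 of 9 against root and 5 of 9 against spike, where 1.76% and 1.42% of all genes were called higher. Over all genes, the limma fit of all spike libraries called 349 genes, edgeR 517 and DESeq2 2772. The RNAi fit with the block left out RNAi line 4 and called 692 genes. Without that line and without the block, limma called 396 genes, which is the value to set beside 692.

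With 1 library each of embryo and root, the ranking has no replicate check, and CAGE read 10 members only. Reads of the shallow CK replicate 1 weigh on members with low spike levels.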
